A study of Rattus norvegicus with 6 samples.

Results

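Chemokine genes were followed in primary cultures of rat cardiac fibroblasts treated with pertussis toxin (PTX) or with water. The genes are a listed part of the chemokine family: Ccl2, Ccl3, Ccl20, Cx3cl1, Cxcl6 and Cxcl12. Every probe set that the platform annotation assigns to 1 of them alone was taken. Added to these was 1 probe set without a symbol whose name points to the rat CINC/gro gene, Cxcl1. This gave 9 probe sets of 6 genes among the 8740 probe sets of the array, and no probe set named for Cxcl12. The annotation names 10 more chemokine genes alone, with 11 probe sets, which are outside the list and given further below. The list was picked with the PTX to control differences of these same arrays known. The differences of its members are therefore given as a description, with their standard errors (SE), and no p-value is given for a member.

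Cells came from the ventricles of Sprague-Dawley rats aged 1 to 2 days, the strain being written SD for PTX replicate 3. The 3 controls received water and the 3 treated cultures PTX, each for 24 h, with 1 single-colour Affymetrix array per sample. PTX, a toxin of Bordetella pertussis, modifies the alpha subunits of Gi and Go proteins so that receptors can no longer activate them. The sources used here give no dose. The labels name no separate isolations of cells, so the errors and p-values measure how these 3 samples per group vary, which may be technical variation alone.

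Chemokines are small secreted proteins that bind heparan sulfate on cells and matrix and guide leukocytes along their gradients. They are classed by the spacing of their first cysteines, as CC (Ccl2, Ccl3, Ccl20), CXC (Cxcl1, Cxcl6, Cxcl12) and CX3C (Cx3cl1). Their receptors signal mainly through Gi proteins, the substrates of PTX. In the heart, fibroblasts make CC and CXC chemokines in response to interleukin-1, tumour necrosis factor and Toll-like receptor ligands, largely through the transcription factor NF-kappaB.

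The arrays had median signals between 63.1 and 68.85, and their number limits the precision. Control replicate 1 correlated less with the other 5 arrays than these did among themselves. Pearson's r across all probe sets was 0.952 to 0.960 against 0.978 to 0.985. Values without control replicate 1 are therefore given beside many of the results, though not beside all that it moves. All 11 fibroblast marker genes looked at passed the filter on low signals, and so did 12 of 14 cardiomyocyte marker genes, with a median log2 change of -0.26 over their tested probe sets (-0.14 when control replicate 1 was left out). Cardiomyocyte transcripts were bright: their 23 probe sets summed to signals of 465242 to 561995 on the controls and 401013 to 449506 with PTX. The 27 fibroblast probe sets summed to 127509 to 143928 and 125523 to 136504. These sums give no share of cells, and the cultures are called fibroblasts here as the labels do. In such bulk samples fewer cells of a type and less RNA per cell cannot be told apart.

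All 9 chemokine probe sets passed the filter, a mean log2(signal + 16) at or above the 40th percentile of all probe sets (a signal of about 33.3). A stricter level, the 60th percentile (a signal of about 119.7), separates brighter from dimmer probe sets below. The 5 brighter ones belong to Ccl2 and Cx3cl1. The 4 dimmer ones, of Ccl3, Ccl20, Cxcl1 and Cxcl6, lie closer to the background, where such signals are noisy and a pseudocount damps their change. The Cxcl1 probe set lay just under that level and the dimmest of Cx3cl1 just above it. Probe sets differ in how strongly they bind their targets, so no order of levels between genes is given.

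**Figure D1:**
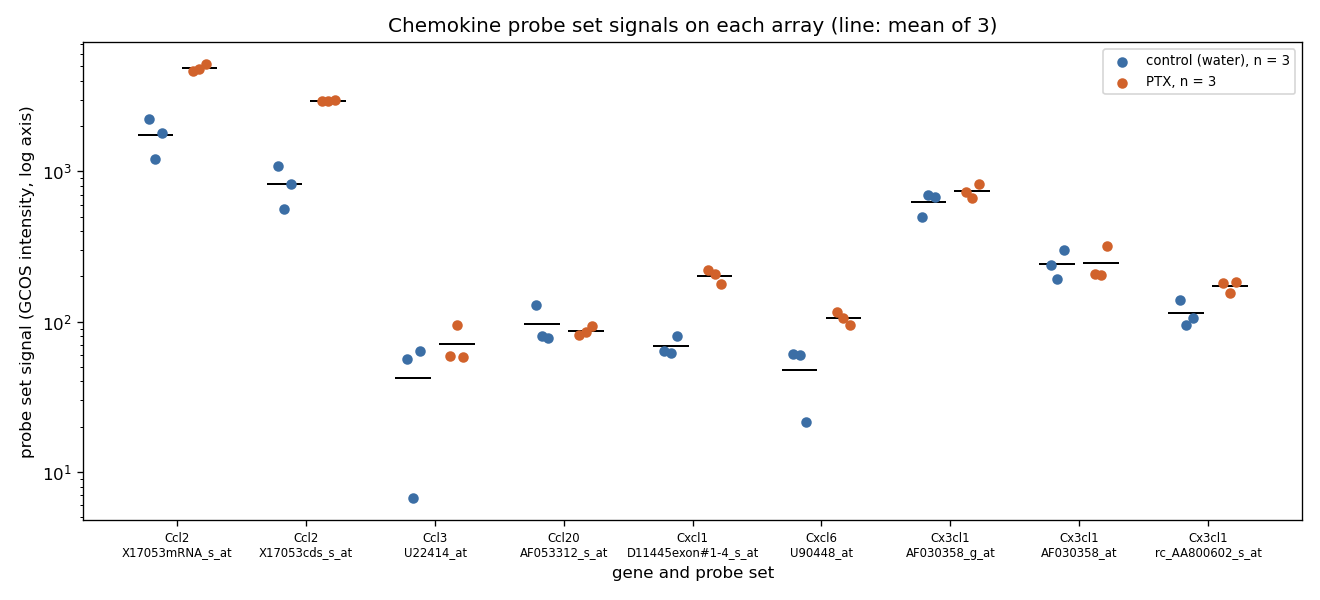
Signal of each chemokine probe set on each array (linear GCOS intensity on a log axis, points) with the mean of each group of 3 (line). The 3 PTX points lie above the 3 control points for both Ccl2 probe sets, for Cxcl1, Cxcl6 and the dimmest Cx3cl1 probe set, and the groups overlap for Ccl3, Ccl20 and the other Cx3cl1 probe sets.

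Ccl2, the chemokine that recruits monocytes through the receptor Ccr2, is read by 2 probe sets made from the same transcript, which are therefore not independent. The brighter one (mRNA in its name) had signals of 2219, 1205 and 1790 on control arrays 1 to 3 and of 4659, 4785 and 5161 on PTX arrays 1 to 3. On the other (cds in its name) the controls read 1079.5, 561 and 822 and the PTX arrays 2945, 2911 and 2985.5. Both sets put control replicate 2 lowest and control replicate 1 highest, and no PTX array came near the controls. The lowest PTX signal was 2.1 times the highest control signal on the mRNA set and 2.7 times on the cds set.

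The group means of the mRNA set were 1738 ± 509 and 4868 ± 261 (SD, n = 3 each), a log2 change of 1.52 ± 0.21 (SE), or 2.87-fold. Those of the cds set were 821 ± 259 and 2947 ± 37.3, a log2 change of 1.87 ± 0.22, or 3.66-fold. These folds are on the scale of log2(signal + 16). Without control replicate 1 the log2 changes were 1.72 (mRNA set) and 2.09 (cds set). The treated cultures were more alike than the controls. The SD was 31.6% of the mean in the controls and 1.26% with PTX on the cds set, and 29.3% against 5.36% on the mRNA set. The ratio of the mRNA to the cds set was 2.05 to 2.18 on the control arrays and 1.58 to 1.73 on the PTX arrays. The sets thus differ in the size of the change but not in its direction.

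Cxcl1 and Cxcl6 are CXC chemokines that attract neutrophils. On the CINC/gro probe set the controls had 63.5, 62.2 and 79.8 and the PTX arrays 220.5, 207 and 178. The groups were clearly apart, with a lowest PTX signal 2.23 times the highest control. The means were 68.5 ± 9.81 and 202 ± 21.7 (SD, n = 3 each), with a log2 change of 1.37 ± 0.18 (SE). Without control replicate 1 it was 1.33. The pseudocount moved it more, to 1.55 with a pseudocount of 1 and to 1.00 with 64. Cxcl1 has close relatives, and whether this probe set also reads these was not tested.

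Cxcl6 had control signals of 61.2, 60.4 and 21.4 and PTX signals of 116, 105 and 95.7. All PTX arrays lay above all controls, by 1.56 times at the nearest pair, and control replicate 3 was the low one. The means were 47.7 ± 22.8 and 106 ± 10.1 (SD, n = 3 each), with a log2 change of 1.01 ± 0.31 (SE). Without control replicate 3 this was 0.66, without control replicate 1 it was 1.18, and with a pseudocount of 64 it was 0.62. The size for Cxcl6 is thus less certain than for Ccl2, and that for Cxcl1 also depends on the pseudocount.

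Because Cxcl1 and Cxcl6 were both higher on every PTX array, their promoters are shown, with that of Ccl20, which was not, for contrast. The dimmest Cx3cl1 probe set was also higher on every PTX array, and the window of this gene is described below without being printed. The sequences are from RefSeq on the rat assembly GRCr8, for the 250 bases before the transcript start, 5′ to 3′ on the gene's strand. Capitals mark matches on either strand to the NF-kappaB consensus, and overlapping matches run together.
Cxcl1, chr14:17479322-17479571, minus strand: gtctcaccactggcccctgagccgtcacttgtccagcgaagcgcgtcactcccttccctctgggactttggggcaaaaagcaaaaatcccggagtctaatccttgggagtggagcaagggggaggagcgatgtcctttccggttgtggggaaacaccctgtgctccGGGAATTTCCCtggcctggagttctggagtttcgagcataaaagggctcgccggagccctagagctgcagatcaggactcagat
Cxcl6, chr14:17596418-17596667, minus strand: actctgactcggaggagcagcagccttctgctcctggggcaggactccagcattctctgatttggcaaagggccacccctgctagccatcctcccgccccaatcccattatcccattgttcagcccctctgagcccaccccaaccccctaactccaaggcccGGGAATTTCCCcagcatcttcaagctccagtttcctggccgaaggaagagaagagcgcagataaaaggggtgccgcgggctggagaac
Ccl20, chr9:91836909-91837158, plus strand: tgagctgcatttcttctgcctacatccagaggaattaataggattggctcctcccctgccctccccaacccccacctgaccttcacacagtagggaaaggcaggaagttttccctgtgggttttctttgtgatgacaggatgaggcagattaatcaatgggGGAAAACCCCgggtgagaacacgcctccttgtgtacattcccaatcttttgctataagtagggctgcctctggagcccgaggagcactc

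The promoters of Cxcl1 and Cxcl6 hold the same run of 11 bases, GGGAATTTCCC, in which a match on each strand overlaps. It lies 84 to 74 bases before the start in Cxcl1 and 88 to 78 bases before it in Cxcl6. Of 33469 rat promoters of 300 bases (250 before the start and 50 after it), 4.18% hold a match to the consensus and 5 hold this run, those of Cxcl1, Cxcl6, Gbp6, Optn and Retn. The run was chosen for counting after it was seen. Ccl20 has a single match, GGAAAACCCC, 89 to 80 bases before its start. The windows of Cx3cl1 and Cxcl12 hold no match to the consensus. That of Cx3cl1 (chr19:10242821-10243070, minus strand) lies before a transcript start inside the annotated gene (10233326-10244856). The sequence before the outer end of this gene was not read. Neither TGANTCA, an AP-1 motif found in 7.33% of promoters, nor TATAAA, in 14.2%, matched on either strand in the windows of Cxcl1, Cxcl6 and Ccl20, while Cx3cl1 holds 1 TATAAA. Promoters of Ccl2 and Ccl3 were not analysed here, so these windows do not cover the family. A match describes these letters and was not tested as a binding site.

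Ccl3, a CC chemokine made mostly by myeloid cells, varied as much within a group as between groups. Its controls had 56.1, 6.7 and 64.2 and its PTX arrays 59.5, 95.1 and 58. The groups overlapped, and control replicate 2 alone was far below the rest. The log2 change of 0.75 ± 0.48 (SE) therefore hung on that array. It was 0.17 without control replicate 2, 0.38 with a pseudocount of 64 and 1.00 without control replicate 1.

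Ccl20, which attracts cells bearing Ccr6, showed no difference larger than its spread. Its controls had 129, 80.7 and 77.8 and its PTX arrays 81, 84.9 and 93.6. Control replicate 1 was the highest of the 6 and the others lay close together. The log2 change was -0.10 ± 0.22 (SE), and 0.10 without control replicate 1.

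Cx3cl1, or fractalkine, is made as a membrane-bound adhesion molecule and released by the proteases Adam10 and Adam17. Its 3 probe sets did not give the same picture. The brightest had 498, 696 and 679 in the controls and 732, 668 and 822 with PTX. These groups overlapped, with means of 624 ± 110 and 741 ± 77.4 (SD, n = 3 each) and a log2 change of 0.25 ± 0.17 (SE), or 0.10 without control replicate 1.

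The middle Cx3cl1 probe set, made from the same sequence, had 238, 191 and 299 in the controls and 208, 204.5 and 319 with PTX. Replicate 3 was highest in both groups, and the log2 change was -0.00 ± 0.23. The dimmest, made from a separate sequence tag, had 140, 95.5 and 106 in the controls and 181, 155 and 184 with PTX. Here the groups did not overlap, by 1.1 times at the nearest pair, and the log2 change was 0.55 ± 0.18. This probe set belongs to the 375 tested ones named rc_AA799 or rc_AA800, whose median log2 difference between control replicate 1 and the other controls was -0.81 (0.05 over all tested probe sets). It was itself highest on that control, and its log2 change without that array was 0.69.

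**Figure D2:**
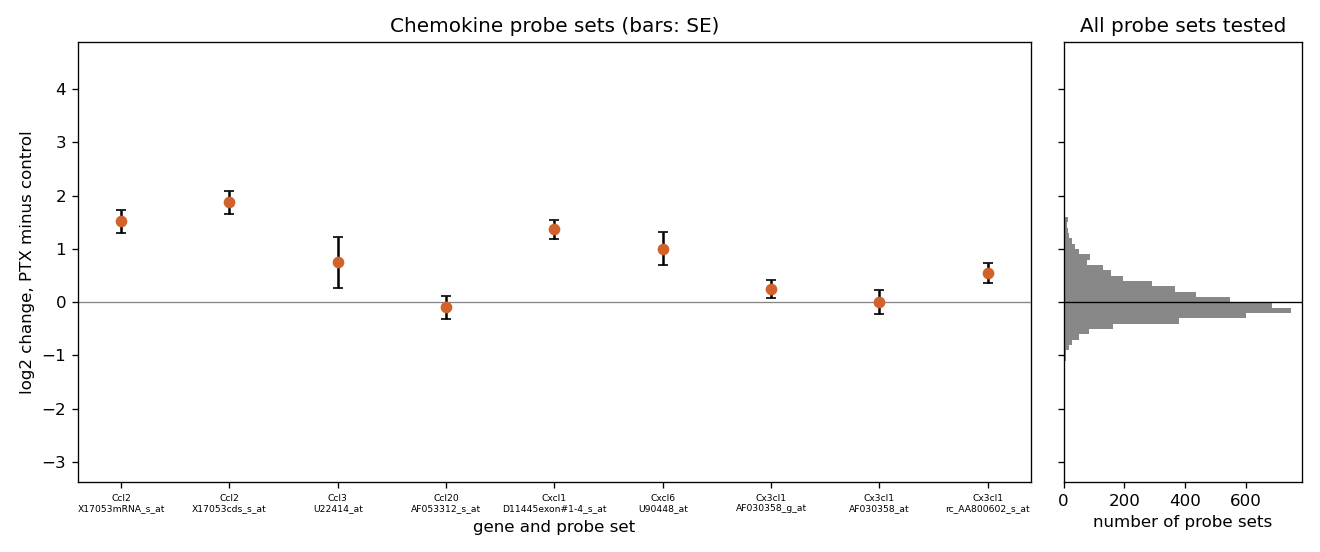
Log2 change between PTX and control for each chemokine probe set (points, with SE bars), beside the distribution of the log2 changes of all 5244 tested probe sets. Ccl2, Cxcl1 and Cxcl6 lie between 1.01 and 1.87, Ccl20 and the middle Cx3cl1 probe set lie near 0, and the grey distribution centres near 0.

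Set against the whole array, 4 of the 9 chemokine probe sets had a log2 change above 1, where 2.61% of the 5244 tested probe sets did. A positive log2 change was found in 7 of the 9, against 47.1% of those tested. In 5 of the 9 all PTX arrays lay above all controls (12% of those tested) and in 0 all lay below (10.6%, making 22.6% without overlap), and 4 overlapped. The median log2 change was 0.75 for the 9, or 1.00 without control replicate 1, and -0.02 over all tested. Nothing is read from these counts, since the listed genes, a part of the family, were chosen with this contrast known. The 11 probe sets of other chemokine genes are not counted here. The cds set of Ccl2 ranked 4 of 5244 by log2 change, the mRNA set 24, Cxcl1 41 and Cxcl6 137.

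In the limma fit over all 5244 probe sets, at an adjusted p under 0.05 (Benjamini-Hochberg), 0.0763% were called, 4 in all and each higher with PTX. Of the 9 chemokine probe sets 1 was among them, the cds set of Ccl2. As the family was chosen on this contrast, its calls only place the members in the fit and support nothing. That call was lost with a pseudocount of 1, no filter, quantile normalization and eBayes without a trend. It was also lost without PTX replicate 1, without PTX replicate 2 and without PTX replicate 3, where 0 probe sets were called in all (361, 379 and 381 at an unadjusted p under 0.05). Without control replicate 1 the count was 3, both Ccl2 sets and Cxcl1, of 115 called in all. Without control replicate 3 it was 2, the cds set and Cxcl1, of 30 in all.

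**Figure D3:**
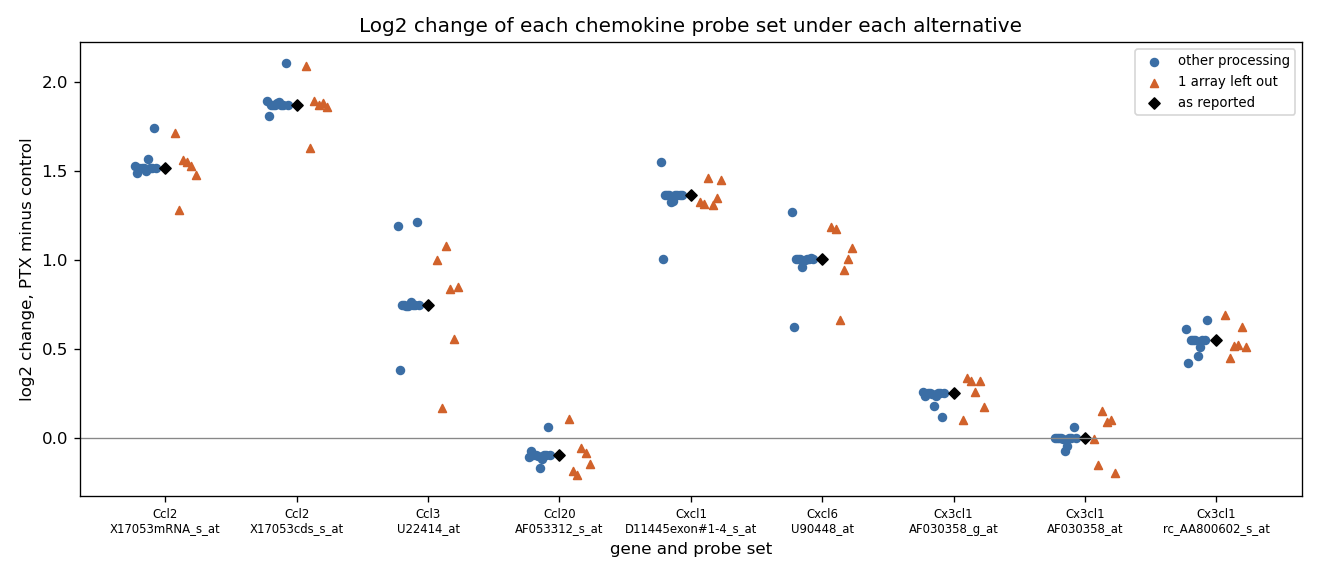
Log2 change of each chemokine probe set as reported (black) and under each alternative, with other processing in blue and 1 array left out in orange. Both Ccl2 sets, Cxcl1 and Cxcl6 stay above 0 throughout. Leaving out 1 array cannot turn their sign, since their groups do not overlap. Ccl3 spreads from 0.17 to 1.21, and Ccl20 and the middle Cx3cl1 set fall on either side of 0.

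Other chemokines named alone by the annotation have 11 probe sets of 10 genes, and 2 of these passed the filter. Pf4, or platelet factor 4, a CXC chemokine of platelets and macrophages, had 522, 455.5 and 399 in the controls and 608, 686 and 547 with PTX. These groups did not overlap (log2 change 0.41, limma adjusted p = 0.366). Xcl1, a chemokine of T and natural killer cells, had 29.8, 69.4 and 59.2 in the controls and 6.4, 14.4 and 64.3 with PTX. Its groups overlapped (log2 change -0.81, limma adjusted p = 0.492). The 9 others, of Ccl4, Ccl5, Ccl11, Cxcl2, Cxcl3, Cxcl10, Cxcl13 and Cxcl14, had mean signals of 1.8 to 27.1 over the 6 arrays and overlapped between the groups. Among them are the neutrophil chemokines Cxcl2 and Cxcl3 and the interferon-induced Cxcl10, with means of 12.2 and 16.7.

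Genes of chemokine action and induction were taken from 6 lists holding 78 genes with 126 probe sets, of which 87 were tested. No probe set passed the limma test (smallest adjusted p = 0.137), while an unadjusted p under 0.05 was reached by 15 higher and 0 lower ones. Over all tested probe sets, 12.6% reached that p. Without control replicate 1, 4 of the 87 passed, of Nfkbia, Icam1 and Gng10, where 115 of all 5244 tested probe sets passed. Without control replicate 3, 1 passed, of Gng10, where 30 passed in all. Without control replicate 2 or any 1 of the PTX arrays, 0 of the 87 passed.

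Among the receptors 10 genes were named and 5 probe sets of 4 genes were tested. Their median log2 change was -0.04, and 0.13 without control replicate 1. Ackr3, which binds Cxcl12 without coupling to Gi, had the smallest p, with 141 ± 7.6 in the controls and 172 ± 23.6 with PTX (SD, n = 3 each; limma adjusted p = 0.503). Cxcr1, a receptor of neutrophil chemokines, differed by -0.26 in log2 signal (adjusted p = 0.60), and Ccr1, a receptor of Ccl3, by 0.15 (adjusted p = 0.745). Cxcr4, the receptor of Cxcl12, had -0.11 and -0.04 on its tested probe sets. Ccr2, the receptor of Ccl2, was not tested, with signals of 2 to 16.5, and Cx3cr1 had 1.8 to 45.6 with overlapping groups.

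The list of G proteins, receptor kinases and arrestins had 21 tested probe sets and a median log2 change of -0.02. Gnai2, a PTX substrate, had 0.39, 0.02 and -0.16 on its probe sets (adjusted p = 0.454 for the first), and Gnao1 had 0.04 and 0.07. Gng10, a gamma subunit, went from signals of 432 ± 122 to 964 ± 56.3, with all PTX arrays above the controls (log2 change 1.17, adjusted p = 0.137). Its probe set is one of those named rc_AA799 described above, and had 0.97 without that array (adjusted p = 0.00791). Grk6, a receptor kinase, had -0.19 (adjusted p = 0.591).

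Of the transcription regulators 25 probe sets were tested, with a median log2 change of 0.03 (0.15 when control replicate 1 was left out). Nfkbia encodes the inhibitor that NF-kappaB itself induces, and had log2 changes of 0.78 and 0.86 on its probe sets (adjusted p = 0.137 and 0.215), with no overlap on either. Without control replicate 1 these were 0.82 and 1.06 (adjusted p = 0.0140 and 0.00662). Hif1a, a regulator of the response to low oxygen, had 0.63 (adjusted p = 0.378), or 0.34 without control replicate 1. Nfkb1 itself had -0.10, and Cebpb, a factor that acts on many inflammatory promoters, had 0.12 and -0.00, all with overlapping groups.

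The inducing cytokines and their receptors had 14 tested probe sets, 11 of them positive, and a median log2 change of 0.20 (0.27 when control replicate 1 was left out). Il1b, a cytokine that induces chemokines, had 6.2, 24.9 and 13.9 in the controls and 47.6, 97.3 and 78.9 with PTX on the probe set with the larger change. No arrays overlapped there (log2 change 1.55, limma adjusted p = 0.204, or 0.0726 without control replicate 1), nor on another of its probe sets (0.67, adjusted p = 0.324). Il1a had 1.18 on the probe set with the smallest p (adjusted p = 0.303), or 0.81 without that array. Its other tested probe set had 0.68 with overlapping groups, and another, below the filter, had 0.53 without overlap. The third probe set of Il1b had 0.21 with overlapping groups, and those of Tnf and Il6 were below the filter. Cd14, a co-receptor for bacterial lipopolysaccharide, had 0.15 without overlap on its brighter probe set and 0.15 with overlap on the other. Tlr4 had 0.39, and -0.40 on a probe set below the filter, both with overlapping groups.

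Genes of chemokine cleavage and heparan sulfate binding had 16 tested probe sets and a median log2 change of 0.06 (0.21 when control replicate 1 was left out). Mmp9, a gelatinase that trims CXC chemokines, had 24.9 ± 15 in the controls and 77.8 ± 21.7 with PTX (SD, n = 3 each; log2 change 1.24, or 0.96 without control replicate 1; limma adjusted p = 0.269). Adam17, a sheddase of Cx3cl1, had 0.60 (adjusted p = 0.360). Gpc3, a heparan sulfate proteoglycan, had 0.90 on the probe set with the smallest p (adjusted p = 0.403), or 0.53 without control replicate 1. Its brightest probe set had -0.24 and its dimmest -0.32, and the groups overlapped on all of them.

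Among the adhesion molecules that leukocytes hold on to, 6 probe sets of 4 genes were tested, with 2 each of Icam1 and Vcam1. All 6 were positive (47.1% of all tested probe sets) and in 5 all PTX arrays lay above all controls (12%), with a median log2 change of 0.64 (0.71 when control replicate 1 was left out). Icam1 had signals of 900 ± 18.8 and 1348 ± 91.3 on its brighter probe set (log2 change 0.57, limma adjusted p = 0.184, or 0.0226 without control replicate 1) and a log2 change of 0.60 on the other (adjusted p = 0.269). Vcam1 went from 63 ± 6.3 to 124 ± 16.1 on its brighter probe set (log2 change 0.82, adjusted p = 0.206, or 0.0767 without that array). The dimmer one had 2.1, 24.2 and 56 in the controls and 98.4, 84.8 and 83.8 with PTX (log2 change 1.49, adjusted p = 0.303). Selp, or P-selectin, had 0.68 on a dim probe set (adjusted p = 0.397), and Itgb1, an integrin chain, overlapped at 0.25.

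**Figure D4:**
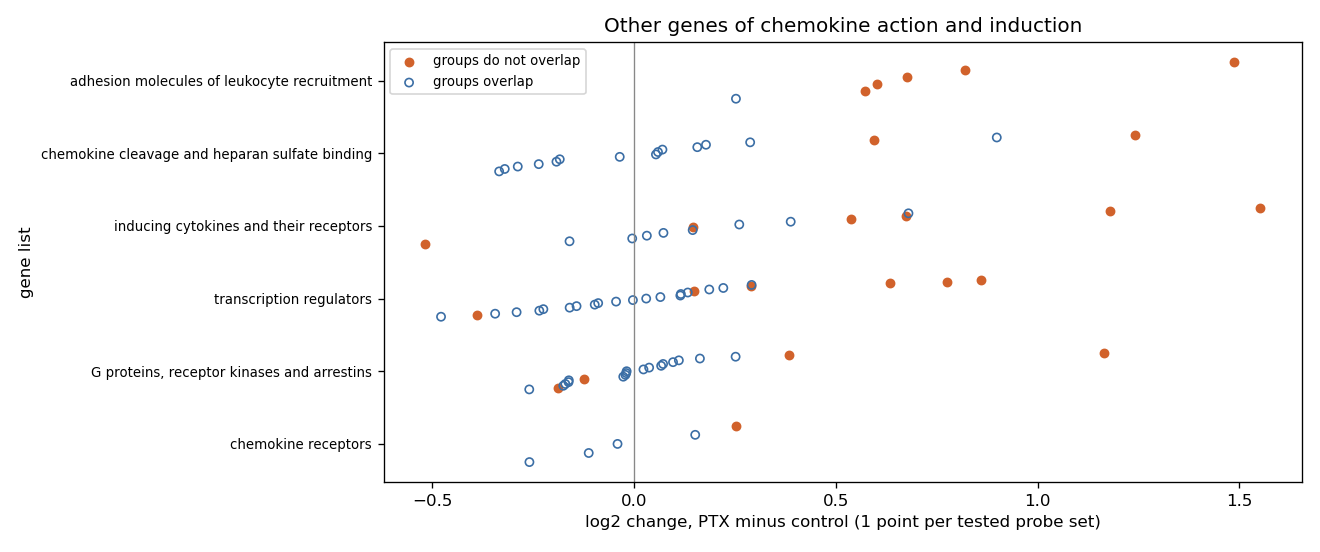
Log2 change between PTX and control of the tested probe sets in 6 lists of other chemokine pathway genes, filled where the 3 PTX and 3 control arrays do not overlap. The adhesion molecules lie to the right of 0, the receptors and G protein genes centre near 0 apart from Gng10 at 1.17, and 0 of these 87 probe sets passed the limma test.

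Leukocytes are another source of chemokines. The list of macrophage and leukocyte markers had 24 probe sets of 13 genes, with summed signals of 4035 to 4128.5 on the control arrays and 4798 to 5924 on the PTX arrays. Most of that sum is Lyz2, a lysozyme of myeloid cells, with 2381 ± 210 and 3445 ± 638 (log2 change 0.52, limma adjusted p = 0.303). Fcgr2b, an Fc receptor, had 325 ± 28.2 and 612 ± 31.1 (0.88, adjusted p = 0.0876). Of 9 tested probe sets on this list 6 were positive, and the median log2 change was 0.15, or 0.23 without control replicate 1. The macrophage complement gene C1qb had -0.39 and -0.16. Ptprc, the pan-leukocyte antigen CD45, had 1.4 to 62.1 over its 3 probe sets, Csf1r had 8.4 to 44.1 and Itgam 1.8 to 19.1, all below the filter with overlapping groups, and no marker was at 0. The part of these markers in the chemokine signals was not tested. The endothelial markers had summed signals of 302 to 536 on the controls and 252 to 380 with PTX.

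The probe sets whose pattern over the 6 arrays was most like that of the mRNA set of Ccl2 were found among 4373 others with 1 gene symbol. The measure was the root mean square difference of log2 values, each centred on its control mean. The nearest were both probe sets of C3, the central complement component, at 0.20 and 0.23, then Enpp2, which encodes autotaxin, at 0.25, Triobp, an actin-binding protein gene, at 0.29, and Lcn2, an iron-withholding lipocalin, at 0.30. Control replicate 1 was the highest control for all of these, as for Ccl2, which the measure favours since it includes the controls. The lowest was control replicate 2 for Ccl2, the nearer C3 set, Enpp2 and Triobp. It was control replicate 3 for the other C3 set and Lcn2.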

How the data were processed

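Signals came from 6 arrays, 3 water controls and 3 PTX samples, grouped by the sample titles. GCOS, the Affymetrix software, was used by the authors, per the labels, which state no version, scaling target or detection call. The values they deposited are intensities on a linear scale, with 2% trimmed means of 493 to 495 per array, and were not rescaled. Of 8740 probe sets, 7006 have 1 gene symbol in the platform annotation, 308 several and 1426 none. For 6985 of the 7006 the gene was found in RefSeq (GRCr8) and its current symbol was used. RefSeq served otherwise for the promoter sequences.

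Signals were analysed as log2(signal + 16), with probe sets under the 40th percentile of mean log2 left out, by limma 3.58.1 in R 4.3.3 (eBayes with a trend, two-sided, Benjamini-Hochberg over 5244 probe sets). The procedure was tested on simulated data.

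The members, lists and alternatives were chosen with earlier results of these data known. Named pathway genes are the 3 smallest p per list and any that passed; others were picked after their values were seen. Samples with the same replicate number did not deviate together (r of -0.09, -0.11 and -0.01), so the groups were compared without pairing. Alternatives were pseudocounts of 1 and 64, other filters, 3 further scalings, the replicate block, no trend, array weights, a probe set class left out and each array left out.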

Additional observations from a re-analysis of the deposited data

How the results depend on the processing

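The counts of calls moved with the processing, and the cause was not tested. The number of chemokine probe sets called (1 as reported) was 2 with a pseudocount of 64, 3 with array quality weights and 3 without the rc_AA799 and rc_AA800 class. It was 0 with a pseudocount of 1, no filter or quantile normalization, and also with the replicate block (552 probe sets at an unadjusted p under 0.05) and eBayes without a trend (615). With 1 array left out it ranged from 0 to 3. Over all probe sets (4 as reported) the count was 2 with a pseudocount of 1, 7 with 64, 2 with quantile normalization, 81 with array weights, 8 without the class, and 0 with the block (smallest limma adjusted p = 0.0567) or no trend (0.0720). With 1 array left out it was 0 to 115. For the other pathway genes (0 as reported) it was 4 with array weights and 0 to 4 with 1 array left out.

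Over 17 alternatives the log2 change stayed positive for the mRNA set of Ccl2 (1.28 to 1.75), its cds set (1.63 to 2.11), Cxcl1 (1.00 to 1.55), Cxcl6 (0.62 to 1.27), Ccl3 (0.17 to 1.21) and the brightest Cx3cl1 set (0.10 to 0.34), and over 16 for the dimmest (0.42 to 0.69). It changed sign for Ccl20 (-0.21 to 0.10) and the middle Cx3cl1 set (-0.20 to 0.15). Of these values 2 differed from the one reported by more than the SD between replicates, those of Cxcl1 with pseudocounts of 1 and 64. The filters, the replicate block, the fit without a trend and the class left out cannot alter a log2 change and repeat the reported value. Where the groups did not overlap, leaving out 1 array or changing the pseudocount cannot turn the sign of the change. Low signals with no detection calls limit Ccl3, Ccl20, Cxcl1 and Cxcl6.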

Other observations

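Several probe sets below the filter on low signals, chosen after their values were seen, had groups that did not overlap. Over all tested probe sets 22.6% did not overlap. The share below the filter was not counted, so nothing is read from these picks. Sele, or E-selectin, an adhesion molecule of activated endothelium, had 6.1, 8.3 and 5.9 in the controls and 17.2, 16.3 and 12.2 with PTX. A probe set of Tnfrsf1b, a receptor of tumour necrosis factor, had 7, 5.6 and 20.4 in the controls and 34.3, 27.3 and 36.6 with PTX, while its other probe set had 3.1 to 7 on all arrays. Cd74, the invariant chain of class II antigen presentation, was lower with PTX on 1 of its 4 probe sets, with 27.8, 23.8 and 14.4 against 6.1, 3.5 and 2.9. Il1r1, the interleukin-1 receptor, had probe sets in opposite directions, with log2 changes of -0.89 and 0.78 on 2 that did not overlap. Its other 2, of which 1 passed the filter, had -0.00 and 0.06 with overlapping groups.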
